A study of Mus musculus with 15 samples.

Results

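Cells with a high and a low signal of a Lrig1 reporter were compared in the 8 libraries whose titles name normal colonic epithelium, 4 labelled Lrig1-high (S02, S06, S10 and S14) and 4 labelled Lrig1-low (S01, S05, S09 and S13), out of 15 libraries in the series. The libraries were chosen by their titles and carry their deposited numbers as replicate names. Both groups came from mice that carry the Lrig1-eGFP-IRES-CreERT2 reporter allele and the APCmin mutation, so normal epithelium here means tissue of tumor-prone mice and not of wild type mice. The reporter drives eGFP and a tamoxifen-dependent Cre from the Lrig1 locus, and no tamoxifen treatment is named in the labels. Cells were released with EDTA, TryplE and dispase, and EpCam-positive cells without CD45 and CD31 were sorted by eGFP. The labels give no animal, age, sex or allele dose, and a p-value therefore covers the spread between libraries alone, which may be technical in part. The other 7 libraries come from colonic tumors of such mice, and 1 of them held 357 counts and was left out of the fits given here.

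The intestinal epithelium is renewed from stem cells at the crypt base, which depend on Wnt and Notch signals and on low BMP signalling. Their daughters divide a few more times, then become absorptive enterocytes or one of the secretory types (goblet, enteroendocrine, tuft and, in the small intestine, Paneth cells). Lrig1 is a membrane protein that lowers the activity of ErbB receptors, and its locus marks stem and progenitor cells in the lower crypt. A sort by Lrig1 is therefore used to separate cells near the crypt base from more differentiated cells.

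Read counts per library were 11703299 to 17296536, with 14642 to 15990 genes detected, with 15.8% to 27.1% of the counts in mitochondrial ribosomal RNA. The tissue label was checked against markers. Of 6 genes of colonic epithelium in the table, 5 were below 1 CPM (read counts relative to the scaled library total) in all 8 libraries. Among them, Car1, Fxyd4, Hoxb13 and Hoxd13 were at 0 in all 8 libraries and Aqp8, a water channel of colonocytes, was at 0.805 CPM or less. The 6 genes summed to 11.9 to 15.1 CPM in Lrig1-high and 12.8 to 22.2 CPM in Lrig1-low libraries. Nearly all of that came from the remaining gene, which was thus present in all 8. Sis, the brush border sucrase-isomaltase of the small intestine, was at 276 to 3034 CPM, and the Paneth cell defensins were present, so the label colon is repeated here only as a name. The epithelial sort marker Epcam lay between 918 and 1509 CPM, and the CD31 gene Pecam1 did not exceed 1.85 CPM. Of 14 leukocyte markers 10, and of 10 fibroblast markers 8, were below 1 CPM in all 8 libraries. In bulk samples, fewer cells of a type and less RNA per cell cannot be told apart.

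Lrig1 (gene 16206, mm10 chromosome 6, 94604529 to 94700145) went against the label in 2 libraries. It was at 126, 138 and 146 CPM in the libraries labelled Lrig1-high S02, S06 and S14 and at 36.4 CPM in the fourth, S10. It was at 51.4, 45.3 and 54.0 CPM in the libraries labelled Lrig1-low S01, S05 and S13 and at 85.5 CPM in the fourth, S09. S10 lay below every Lrig1-low library, S09 lay between the groups formed by the other 6, and without these libraries the groups did not overlap. As labelled, Lrig1 averaged 112 ± 50.9 CPM in Lrig1-high and 59.0 ± 18 CPM in Lrig1-low libraries (SD, n = 4 each), with a log2 fold change of 0.92 ± 0.47 (SE, edgeR adjusted p = 1) and p = 0.171 in an exact two-sided permutation test, where 0.0286 is the smallest possible. Without S09 and S10 it averaged 137 ± 9.93 CPM in Lrig1-high and 50.2 ± 4.46 CPM in Lrig1-low libraries (SD, n = 3 each), a log2 fold change of 1.45 ± 0.11 (SE). The exact permutation p was then 0.1, the smallest that 3 against 3 can give. Because S09 and S10 were singled out by their level of Lrig1 and of crypt genes, p-values without them are too small, and they are given below to describe sizes.

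**Figure D1:**
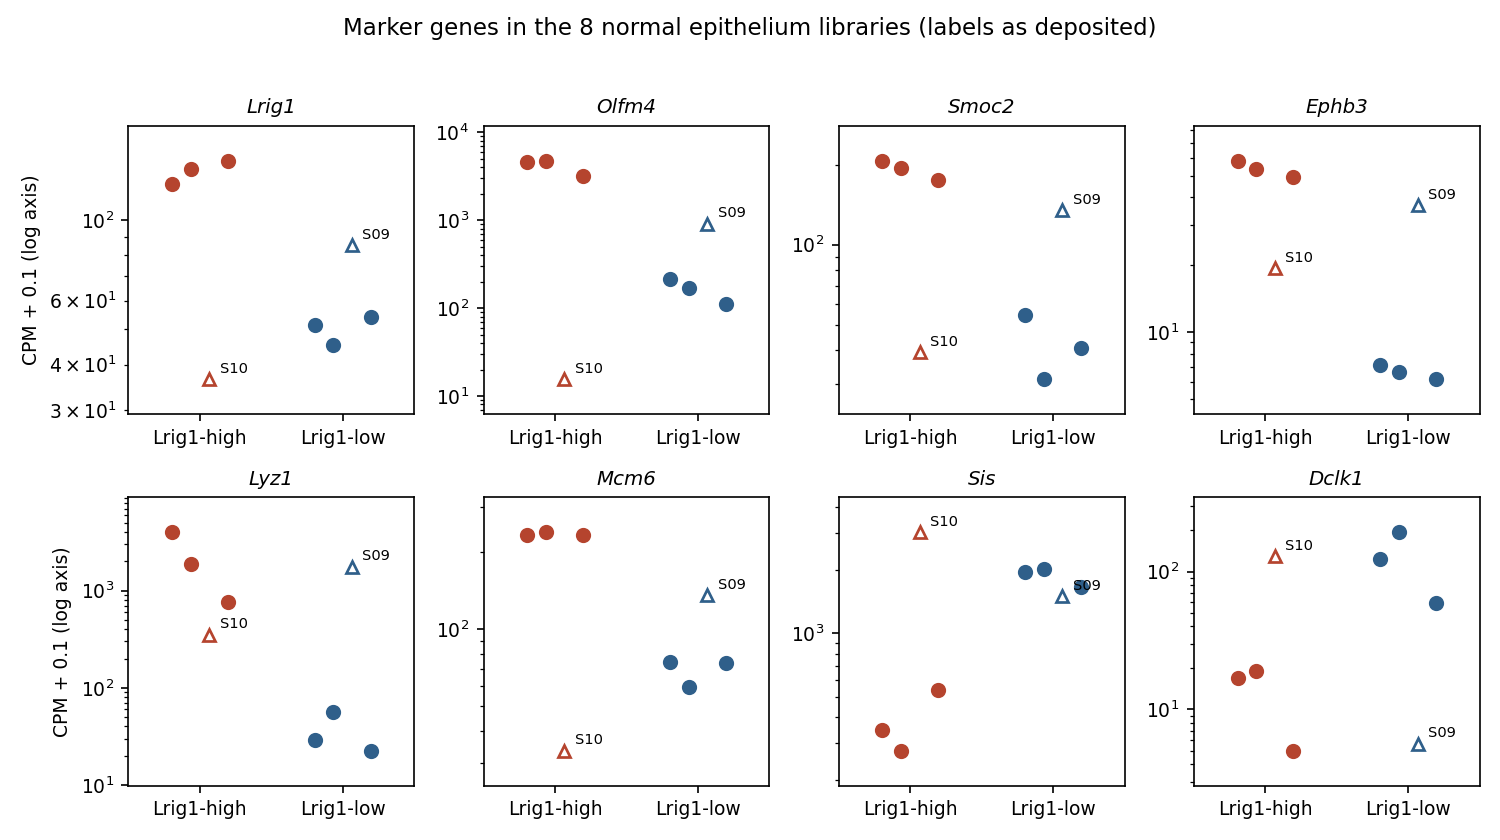
Level of 8 genes in each normal library, in CPM + 0.1 on a log axis, with Lrig1-high libraries left and Lrig1-low libraries right. Each point is a library, and open triangles mark S10 (labelled Lrig1-high) and S09 (labelled Lrig1-low). For Lrig1, the filled points of Lrig1-high libraries are at 126 to 146 CPM and those of Lrig1-low libraries at 45.3 to 54.0 CPM, with S10 at 36.4 CPM and S09 at 85.5 CPM.

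With the labels as deposited, edgeR called no gene at an adjusted p under 0.05, while DESeq2 and limma-voom called some. In edgeR, 0 of 13883 genes were higher and 0 lower in Lrig1-high libraries (0% each), 499 had an unadjusted p under 0.05, and the lowest adjusted p was 1. DESeq2 called 1 gene higher, Pla2g2a, and 0 lower. In limma-voom, which gave less weight to S10 (0.348) and S09 (0.691) than to the other 6 (1.84 to 3.33), 2057 genes (14.8%) were higher and 2112 (15.2%) lower. Without S09 and S10, edgeR called 2 genes higher in 12 libraries (0.0146%) and 0 lower. In the 6 normal libraries alone it called 2270 of 12572 genes higher (18.1%) and 2229 lower (17.7%). Of the 2270, 1816 were also called higher by limma-voom on 14 libraries, and of the 2229, 1828 were also called lower. Both fits use the same 6 libraries and give S09 and S10 less weight or none, so the shared calls are no separate support.

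The common dispersion of edgeR, a squared coefficient of variation between libraries of a group, was 0.339 in the 14 libraries, 0.306 in 12, 0.156 in the 8 normal libraries and 0.0644 in the 6. When each of the 8 was left out of a fit of the normal libraries, 881 genes were higher and 1043 lower without S10, 11 and 2 without S09, and 0 and 0 without any other library. When a further library was left out of the 6, 1778 to 1945 genes were higher and 1667 to 1940 lower. The median log2 fold change of all genes was 0.01 both in the 14-library and in the 6-library fit.

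The 2 genes called in 12 libraries were Ephb3, a receptor tyrosine kinase that positions cells in the crypt, and Tnfrsf19, a TNF receptor family member also named Troy that marks crypt base stem cells. Ephb3 (gene 13845, chromosome 16, 21204795 to 21223304) had 58.4, 53.6 and 49.2 CPM in the Lrig1-high libraries S02, S06 and S14 and 19.3 CPM in S10, against 7.01, 6.53 and 6.07 CPM in the Lrig1-low libraries S01, S05 and S13 and 37.0 CPM in S09. Its log2 fold change was 3.04 ± 0.36 in 12 libraries (SE, edgeR adjusted p = 0.0368), against 1.67 ± 0.59 with S09 and S10. Tnfrsf19 (gene 29820, chromosome 14, 60963834 to 61046855) had 25.2, 25.7 and 20.6 CPM in S02, S06 and S14 and 7.82 CPM in S10, against 1.14, 0.537 and 0.467 CPM in S01, S05 and S13 and 9.97 CPM in S09, a log2 fold change of 5.04 ± 0.65 in 12 libraries (SE, edgeR adjusted p = 0.0439). For both genes S09 was above S10, and the other 6 libraries did not overlap between labels.

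The start regions of the sorted gene and of these 2 genes are shown because Ephb3 and Tnfrsf19 are called without S09 and S10 and Lrig1 defines the groups. Each window runs from 250 bases before to 50 after a RefSeq start (GRCm38.p6), 5′ to 3′ on the gene's strand. The core of the sites bound by the TCF and LEF factors that carry Wnt signals, CTTTGA on either strand, was searched and is in capitals. It occurs in 16% of 32817 windows of that length. The Lrig1 window is chr6:94700096-94700395 on the minus strand, the Ephb3 window chr16:21204545-21204844 on the plus strand, and the first Tnfrsf19 window chr14:61037938-61038237 on the minus strand.
Lrig1: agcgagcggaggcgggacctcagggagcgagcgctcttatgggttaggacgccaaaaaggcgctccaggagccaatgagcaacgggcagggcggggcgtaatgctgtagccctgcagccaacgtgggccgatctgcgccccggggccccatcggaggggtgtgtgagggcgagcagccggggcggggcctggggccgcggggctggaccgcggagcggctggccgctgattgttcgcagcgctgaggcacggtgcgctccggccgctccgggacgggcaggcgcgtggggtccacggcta
Ephb3: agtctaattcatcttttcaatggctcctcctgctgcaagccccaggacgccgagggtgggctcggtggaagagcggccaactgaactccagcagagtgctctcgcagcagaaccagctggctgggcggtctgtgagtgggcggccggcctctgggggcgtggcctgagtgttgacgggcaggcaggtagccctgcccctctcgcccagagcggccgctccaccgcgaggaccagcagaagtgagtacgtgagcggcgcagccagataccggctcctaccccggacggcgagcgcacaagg
Tnfrsf19: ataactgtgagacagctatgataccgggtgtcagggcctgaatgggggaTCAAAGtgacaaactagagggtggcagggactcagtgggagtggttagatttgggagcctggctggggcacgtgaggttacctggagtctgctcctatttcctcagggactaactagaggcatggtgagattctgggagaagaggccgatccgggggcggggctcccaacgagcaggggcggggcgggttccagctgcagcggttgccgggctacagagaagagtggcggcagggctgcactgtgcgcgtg
The motif is in the first Tnfrsf19 window, once, on the reverse strand, and these letters are not in the Lrig1 and Ephb3 windows. A second Tnfrsf19 window, at chr14:61046806-61047105 on the minus strand, holds no motif and is not printed. It spans the upper end of the gene's coordinates above, which on the minus strand is the outermost start of the gene. The Tnfrsf19 windows are numbered by position, and the printed one lies inside those coordinates. A match is a description of the letters and not a bound site.

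Genes of crypt base stem cells were higher in 3 of the 4 Lrig1-high libraries. All 20 listed genes were tested and all 20 had a positive log2 fold change with the labels as deposited (median 1.67, against 0.01 over all genes), with 0 past the threshold. Without S09 and S10 the median was 2.77, and in the 6 normal libraries 20 of 20 passed as higher, where 18.1% of all genes did. S09 and S10 were set aside in part for crypt genes such as these, so that count is no separate test. Per library, the mean log2(CPM + 1) of the list was 6.48, 6.74 and 6.21 in the Lrig1-high libraries S02, S06 and S14 and 4.21 in S10, against 3.99, 3.86 and 3.66 in the Lrig1-low libraries S01, S05 and S13 and 5.54 in S09. Of the 20 genes, 18 were lower in S10 than in S09.

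Olfm4, a secreted glycoprotein of crypt base stem cells that is induced by Notch, had 4645, 4778 and 3227 CPM in the Lrig1-high libraries S02, S06 and S14 and 15.5 CPM in S10, against 213, 168 and 112 CPM in the Lrig1-low libraries S01, S05 and S13 and 915 CPM in S09. S10 was the lowest of all 8 libraries for Olfm4, and S09 the highest of its label. Its log2 fold change was 3.17 ± 1.65 in 14 libraries and 4.69 ± 0.33 in the 6 (SE). Smoc2, a secreted matricellular protein of the stem cell signature, had 207, 194 and 175 CPM in S02, S06 and S14 and 39.4 CPM in S10, against 54.2, 31.1 and 40.7 CPM in S01, S05 and S13 and 135 CPM in S09. Its log2 fold change was 1.24 ± 0.68 in 14 libraries and 2.20 ± 0.19 in the 6 (SE). Slc12a2, a chloride cotransporter of crypt cells, had 2187, 2190 and 1833 CPM in S02, S06 and S14 and 203 CPM in S10, against 328, 218 and 238 CPM in S01, S05 and S13 and 1188 CPM in S09. In each of these genes S10 lay within or below the range of the Lrig1-low libraries other than S09.

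Some other members of the stem cell list differed less. Sox9, a transcription factor of crypt and Paneth cells, had a log2 fold change of 1.18 ± 0.36 in 14 libraries and 1.71 ± 0.17 in the 6 (SE). Prom1, which encodes the surface glycoprotein CD133, had 0.61 ± 0.26 and 0.94 ± 0.14. Over the 20 genes in the 6 libraries, log2 fold changes ran up to 5.04 for Tnfrsf19, and Prom1 had the smallest. Lgr5, the receptor for R-spondins that defines crypt base columnar cells, is added here after its values were seen. It had 107, 99.8 and 73.5 CPM in the Lrig1-high libraries S02, S06 and S14 and 16.4 CPM in S10, against 6.2, 3.49 and 0.778 CPM in the Lrig1-low libraries S01, S05 and S13 and 52.8 CPM in S09.

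Among 6 genes proposed as markers of reserve stem cells, no common direction was seen. Among the 6 libraries, Lrig1, Bmi1, a Polycomb protein (log2 fold change 0.67 ± 0.14, SE) and Hopx, a homeodomain-only protein (1.22 ± 0.17), passed as higher. Krt19, an epithelial keratin (-1.02 ± 0.22), and Clu, a secreted chaperone of injured and revival-state epithelium (-2.07 ± 0.70), passed as lower. Clu had the opposite sign with the labels as deposited (1.2 ± 1.53), and it stood at 271 CPM in S10 and 96.7 CPM in S09, against 0.993 to 15.6 CPM in the other 6 libraries. Tert, the telomerase reverse transcriptase, did not pass (-0.38 ± 0.27 in the 6 libraries). Over all genes, 18.1% passed as higher and 17.7% as lower in these libraries.

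Wnt target and feedback genes were higher in the Lrig1-high libraries S02, S06 and S14 than in the Lrig1-low libraries S01, S05 and S13, and the level of the list in S10 differed from that of the stem cell list. Of 15 listed genes 14 were tested with the labels as deposited, 13 with a positive fold (median 1.17), and 0 passed. Without S09 and S10, the median was 1.77 over 13 tested genes, and 8 passed as higher and 0 as lower. Over all genes the shares were 18.1% and 17.7%. Axin2, a feedback inhibitor of Wnt signalling, had 255, 331 and 250.2 CPM in the Lrig1-high libraries S02, S06 and S14 and 62.3 CPM in S10, against 48.9, 46.7 and 50 CPM in the Lrig1-low libraries S01, S05 and S13 and 138 CPM in S09. Rnf43, a ubiquitin ligase that removes Wnt receptors, had 147, 172 and 130.2 CPM in S02, S06 and S14 and 70.7 CPM in S10, against 38.2, 44.2 and 43.3 CPM in S01, S05 and S13 and 112 CPM in S09. Both passed in the 6 libraries, at 2.53 ± 0.15 and 1.84 ± 0.13 (log2, SE). The cyclins Ccnd1 (0.56 ± 0.24) and Ccnd2 (0.18 ± 0.22) did not pass.

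Among the listed genes 2 inhibitors, Notum and Nkd1, were singled out after their values were seen. Notum, a secreted enzyme that inactivates Wnt ligands, had 0.505, 0.397 and 0.145 CPM in the Lrig1-high libraries S02, S06 and S14 and 41.8 CPM in S10, against 0.734, 1.43 and 1.48 CPM in the Lrig1-low libraries S01, S05 and S13 and 15.5 CPM in S09. Nkd1, an intracellular inhibitor, had 7.51, 9.14 and 4.13 CPM in S02, S06 and S14 and 97.7 CPM in S10, against 1.79, 3.58 and 0.778 CPM in S01, S05 and S13 and 33.9 CPM in S09. S10 and S09 were the highest libraries for both genes, unlike for the inhibitor Axin2 above. In mean log2(CPM + 1), the whole list stood at 4.40 in S10 and 4.25 in S09, against 3.9 to 4.21 in the other Lrig1-high and 3.02 to 3.11 in the other Lrig1-low libraries.

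**Figure D2:**
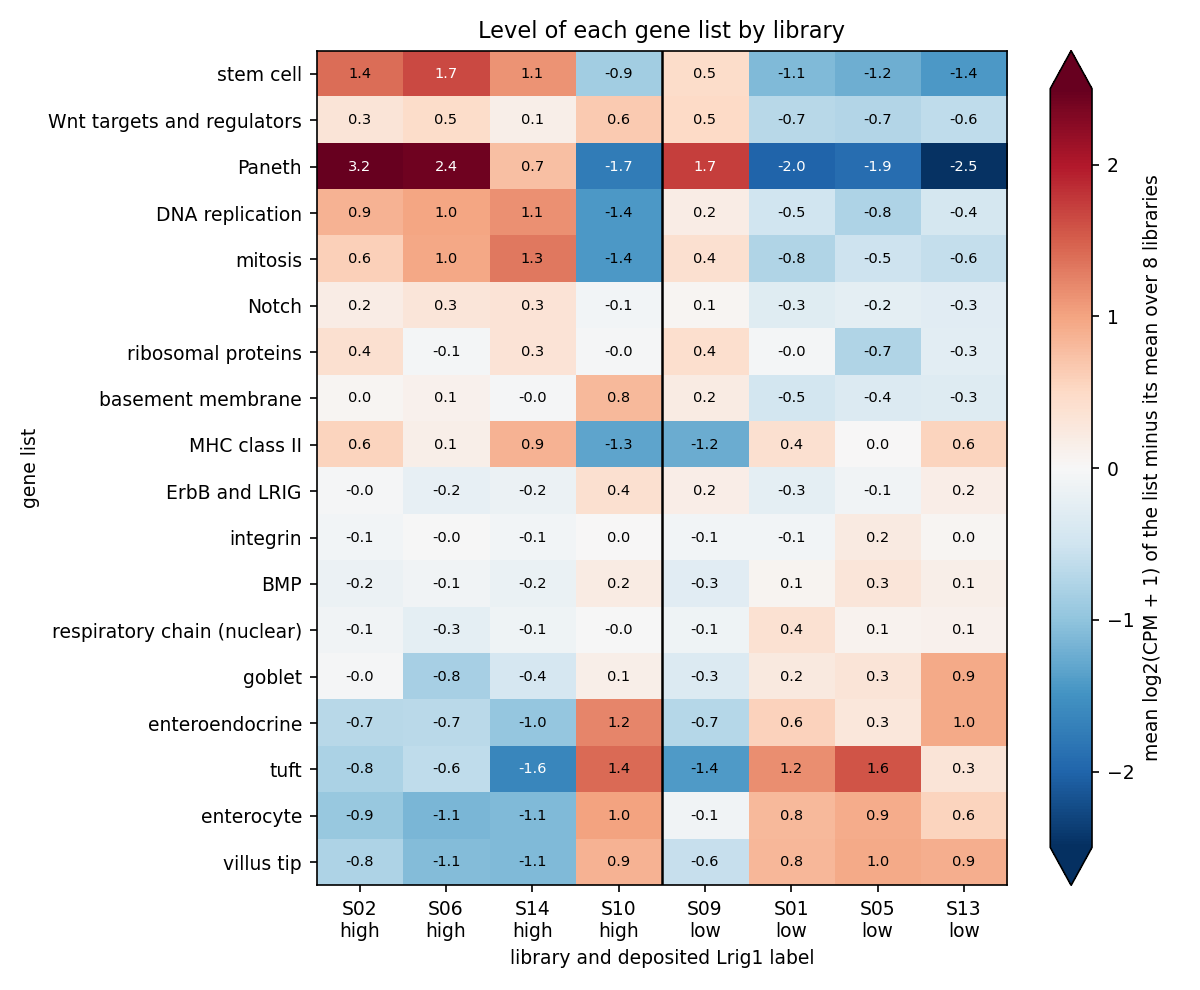
Mean log2(CPM + 1) of 18 gene lists in each library, minus the mean of that list over the 8 normal libraries, with Lrig1-high libraries left of the line and Lrig1-low libraries right of it. S10 and S09 stand beside the line. In S10 the stem cell, Paneth, replication and mitosis lists are at the side of the Lrig1-low libraries, while the Wnt list is as high as in S02, S06 and S14.

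Paneth cell genes had the largest median difference of the lists. Paneth cells lie between the stem cells of the small intestine and secrete lysozyme and defensins against bacteria. Lyz1, the Paneth cell lysozyme, had 3998, 1885 and 771 CPM in the Lrig1-high libraries S02, S06 and S14 and 353 CPM in S10, against 28.7, 55.8 and 22.4 CPM in the Lrig1-low libraries S01, S05 and S13 and 1771 CPM in S09. The Lrig1-low library S09 lay among the Lrig1-high libraries. Itln1, a sugar-binding lectin, had 2817, 1683 and 417 CPM in S02, S06 and S14 and 30.9 CPM in S10, against 39.4, 57.7 and 19.5 CPM in S01, S05 and S13 and 643 CPM in S09. All 13 listed genes had a positive fold with the labels as deposited (median 2.19), and 0 passed. In the 6 libraries the median was 5.92 and 12 of 12 tested genes passed as higher, with Mptx1 below the filter. Over all genes that share was 18.1%.

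Among genes with a mean of at least 10 CPM that were not in excess in 1 library, the 10 called with the largest positive fold change in the 6 libraries were each a Paneth cell product (Defa30, Defa38, Defa39, Mptx2, Defa24, Defa21, Lyz1, Defa17, Defa29 and Itln1), at log2 fold changes of 5.41 to 7.53. This list was drawn up after S09 and S10 were left out. The defensin genes are near-identical copies, and the counting command in the file header names no option for reads that match several places, so the values of single defensins are uncertain. Even without S09 and S10 the Paneth level differed among Lrig1-high libraries, at 7.58 in S02, 6.80 in S06 and 5.12 in S14 (mean log2(CPM + 1)), while the 3 Lrig1-low libraries S01, S05 and S13 were at 1.91 to 2.47.

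Genes of DNA replication and mitosis were higher in the Lrig1-high libraries S02, S06 and S14 than in the Lrig1-low libraries S01, S05 and S13. All 27 replication genes had a positive fold with the labels as deposited (median 1.06), 0 passed, and in the 6 libraries the median was 1.71 with 27 of 27 past the threshold. All 22 mitosis genes were positive too (median 0.87, and 1.51 in the 6 libraries with 22 of 22 past the threshold). Over all genes, 18.1% passed as higher in the 6 libraries. Mcm6, a subunit of the replicative helicase, had 234, 239 and 233 CPM in the Lrig1-high libraries S02, S06 and S14 and 33.3 CPM in S10, against 74.1, 59.1 and 73.5 CPM in the Lrig1-low libraries S01, S05 and S13 and 136 CPM in S09. Mki67, which encodes the proliferation antigen Ki-67, had 1200.4, 1534 and 1767 CPM in S02, S06 and S14 and 295 CPM in S10, against 512, 699.7 and 584 CPM in S01, S05 and S13 and 991 CPM in S09. S10 had less of every gene of both lists than S09, and its replication level, 3.44, was the lowest of the 8.

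Other replication and mitosis genes gave similar sizes. Over the 6 libraries, Lig1, the DNA ligase of replication, differed by 1.89 ± 0.11, Mcm3, another helicase subunit, by 1.86 ± 0.18, and Rrm1, a subunit of ribonucleotide reductase, by 1.84 ± 0.11 (log2, SE). Top2a, a topoisomerase, differed by 2.16 ± 0.20, and Cenpf, a kinetochore protein, by 1.65 ± 0.21. The fold change of Nusap1, a spindle protein, rests on 1 library, S14, with 10738 CPM against 9.88 to 101 CPM in the other 7.

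**Figure D3:**
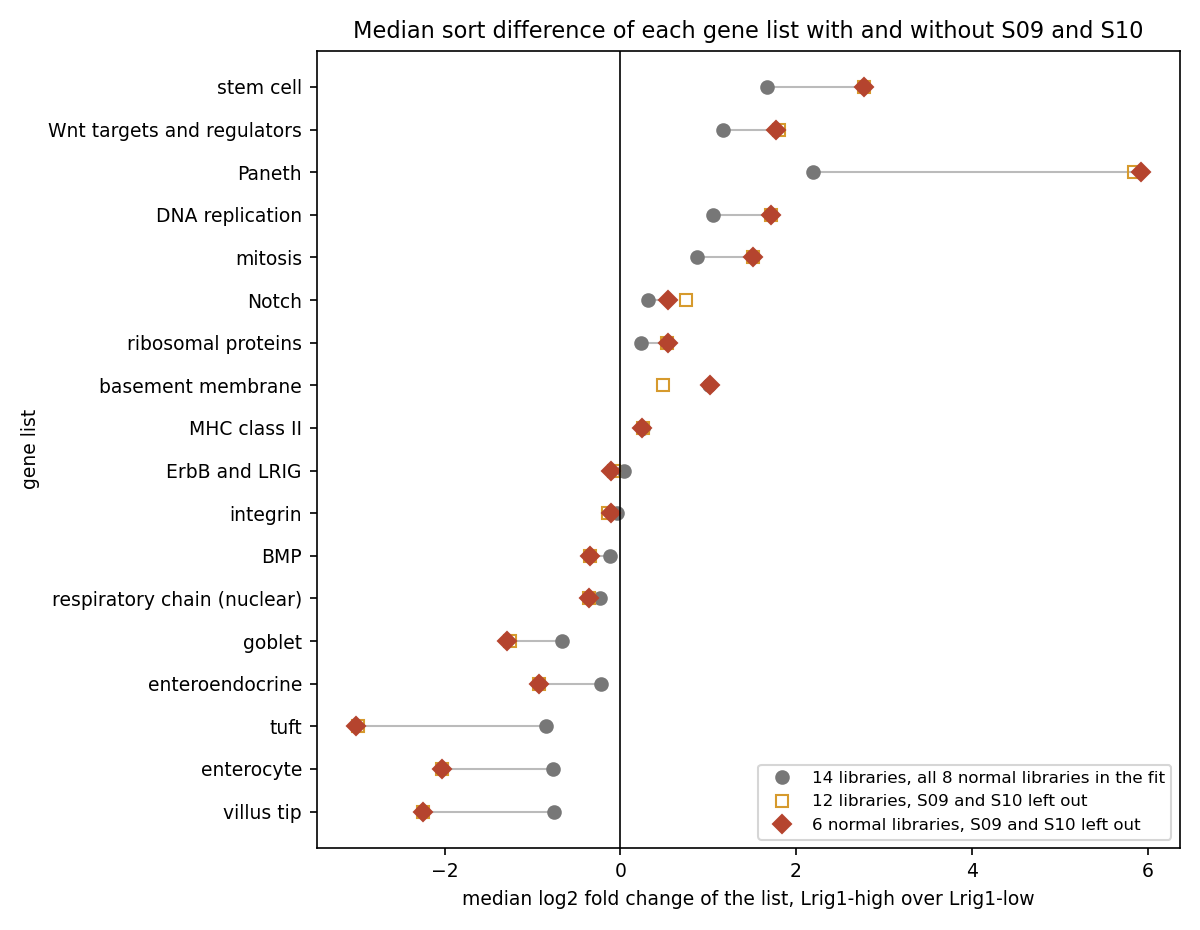
Median log2 fold change of each gene list, Lrig1-high over Lrig1-low, in the 14-library fit (grey), without S09 and S10 in 12 libraries (open squares) and in the 6 normal libraries (diamonds). The stem cell median is 2.77 in the 6 libraries and 1.67 in the 14, and the tuft median is -3.01 in the 6 and -0.84 in the 14.

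Genes of absorptive enterocytes were lower in Lrig1-high libraries other than S10. All 22 had a negative fold with the labels as deposited (median -0.76), and 0 passed. Among the 6 libraries, the median was -2.03 and 21 of 22 passed as lower, where 17.7% of all genes did. Sis had 346, 276 and 537 CPM in the Lrig1-high libraries S02, S06 and S14 and 3034 CPM in S10, against 1959, 2026 and 1669 CPM in the Lrig1-low libraries S01, S05 and S13 and 1500 CPM in S09. Apob, the structural protein of chylomicrons, had 536, 480.2 and 491 CPM in S02, S06 and S14 and 2134 CPM in S10, against 1700, 1673 and 1452 CPM in S01, S05 and S13 and 1065 CPM in S09. S10 was the highest of all 8 libraries for both, and for all 22 genes it was above S09.

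Smaller absorptive differences were seen for Mgam, a brush border maltase (-0.84 ± 0.21 in the 6 libraries), than for Anpep, the aminopeptidase N (-2.26 ± 0.28, log2, SE). Dpp4, a dipeptidyl peptidase, was the 1 gene of the list that did not pass (-0.50 ± 0.18). Genes of the villus tip went the same way, with 6 of 6 past the threshold in the 6 libraries and a median of -2.24, against -0.75 with the labels as deposited. Krt20, a keratin of the most differentiated cells, had 143, 87.9 and 113 CPM in the Lrig1-high libraries S02, S06 and S14 and 649 CPM in S10, against 699.6, 699 and 764 CPM in the Lrig1-low libraries S01, S05 and S13 and 221 CPM in S09. Creb3l3, a transcription factor of lipid metabolism, differed by -2.68 ± 0.17 and Klf4, a transcription factor of differentiated epithelium, by -1.01 ± 0.19 in the 6 libraries. The group of Lrig1-high libraries without S10 did not overlap the Lrig1-low libraries for Krt20, with S09 between them.

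Tuft cells are chemosensory cells that trigger responses to parasites. Their genes had the most negative median of the lists, -3.01 in the 6 libraries, where 13 of 14 tested genes passed as lower, and -0.84 with the labels as deposited. Over all genes, 17.7% passed as lower in the 6 libraries. Dclk1, a kinase used as a tuft cell marker, had 16.7, 18.8 and 4.92 CPM in the Lrig1-high libraries S02, S06 and S14 and 129 CPM in S10, against 123, 193 and 59.6 CPM in the Lrig1-low libraries S01, S05 and S13 and 5.55 CPM in S09. Trpm5, the cation channel of taste and tuft cells, had 16.7, 13.7 and 3.91 CPM in S02, S06 and S14 and 101 CPM in S10, against 98.3, 148 and 40.1 CPM in S01, S05 and S13 and 4.03 CPM in S09. For both genes S10 lay among the Lrig1-low libraries and S09 among the Lrig1-high libraries. Sh2d6, Siglecf and Matk, genes of signalling proteins and a surface lectin, were among the 10 genes with the largest negative fold change in the 6 libraries by the same rule as the Paneth genes above (-3.25 ± 0.67, -4.08 ± 0.50 and -3.86 ± 0.49).

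Ptprc, which encodes the CD45 used to remove leukocytes, varied with the tuft genes. It had 0.757, 0.530 and 0 CPM in the Lrig1-high libraries S02, S06 and S14 and 6.49 CPM in S10, against 6.11, 11.2 and 3.89 CPM in the Lrig1-low libraries S01, S05 and S13 and 0.330 CPM in S09. The summed level of the 14 leukocyte markers was 2.17 to 7.64 CPM in Lrig1-high and 1.19 to 13.6 CPM in Lrig1-low libraries. Its part in the tuft result was not tested.

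Enteroendocrine genes were divided. Of 21 genes, 9 had a positive and 12 a negative fold with the labels as deposited (median -0.22). In the 6 libraries 13 passed as lower and 2 as higher (median -0.92), where 17.7% and 18.1% of all genes did. Sst, the hormone somatostatin, had 15.6, 10.3 and 2.75 CPM in the Lrig1-high libraries S02, S06 and S14 and 316 CPM in S10, against 348, 229 and 702 CPM in the Lrig1-low libraries S01, S05 and S13 and 4.75 CPM in S09. Nts, the hormone neurotensin, differed by -4.33 ± 0.55 in the 6 libraries (log2, SE). The 2 genes that passed as higher were Neurog3, the transcription factor that starts the enteroendocrine lineage (2.20 ± 0.75), and Reg4, a lectin of secretory cells (1.74 ± 0.27). The granins Chga (-0.26 ± 0.25) and Chgb (-0.34 ± 0.19) and the hormone Gip (-0.75 ± 0.28) did not pass.

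Goblet cells make the mucus layer, and their genes differed less than the tuft genes. The median was -0.66 with the labels as deposited and -1.29 in the 6 libraries, where 7 of 12 tested genes passed as lower and 1 as higher. Over all genes the shares were 17.7% and 18.1%. Muc2, the gel-forming mucin, had 872, 409 and 499 CPM in the Lrig1-high libraries S02, S06 and S14 and 1381 CPM in S10, against 1431, 2136 and 2765 CPM in the Lrig1-low libraries S01, S05 and S13 and 591 CPM in S09. Zg16, a mucus lectin, differed by -3.93 ± 0.88 and Fcgbp, a mucus protein, by -1.64 ± 0.45 in the 6 libraries (log2, SE). Clca1, a mucus-processing protein, differed by -2.33 ± 0.33. The 1 gene that passed as higher was Spink4, a protease inhibitor of goblet cells (1.29 ± 0.38). Zg16 varied widely within the Lrig1-low label, at 10192 CPM in S13 against 1137 and 1330.2 CPM in S01 and S05.

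Of the Notch genes, the receptors Notch1 and Notch2 were called higher without S09 and S10, and none of the 4 tested ligands was. Notch signals keep crypt cells undifferentiated and hold back the secretory fate. Notch1 had 131, 178 and 162 CPM in the Lrig1-high libraries S02, S06 and S14 and 35.4 CPM in S10, against 46.2, 35.8 and 36.2 CPM in the Lrig1-low libraries S01, S05 and S13 and 91.1 CPM in S09. Among the 6 libraries, the log2 fold change was 2 ± 0.15 for Notch1, 1.29 ± 0.11 for Notch2 and 0.75 ± 0.13 for Hes1, a repressor induced by Notch (SE). The ligand Dll1 was at 0.54 ± 0.20 and did not pass. Of 11 tested genes 5 passed as higher and 0 as lower in the 6 libraries, where 18.1% and 17.7% of all genes did. The median was 0.54 there, against 0.32 with the labels as deposited.

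The ErbB receptors and LRIG relatives of Lrig1 showed no common direction. The median of the 22 tested genes was 0.04 with the labels as deposited. Among the 6 libraries, 3 of 20 passed as higher (Egf, Egfr and Etv4) and 3 as lower (Dusp5, Erbb3 and Errfi1), no larger shares than the 18.1% and 17.7% of all genes. Egfr, the receptor of epidermal growth factor, had 53.6, 53.8 and 56.5 CPM in the Lrig1-high libraries S02, S06 and S14 and 27.6 CPM in S10, against 31.1, 44.2 and 39.0 CPM in the Lrig1-low libraries S01, S05 and S13 and 39.4 CPM in S09, a log2 fold change of 0.52 ± 0.14 in the 6 libraries (SE). Erbb2, the co-receptor without a ligand of its own, was at -0.36 ± 0.13 and did not pass. Lrig3 was at -0.35 ± 0.16 and Met, the receptor of hepatocyte growth factor, at 0.16 ± 0.09, and neither passed. The call of Erbb3 rests on the Lrig1-low library S13, with 9171 CPM against 226 to 415 CPM in the other 7.

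BMP signals oppose the stem cell state towards the villus. Of 12 tested BMP genes, 5 passed as lower and 1, the ligand Bmp7 (2.03 ± 0.34), as higher in the 6 libraries. Over all genes the shares were 17.7% and 18.1%. The median was -0.12 with the labels as deposited and -0.35 in the 6. Smad7, an inhibitor induced by BMP and TGF-beta signals, differed by -1.02 ± 0.25 and the ligand Bmp2 by -1.81 ± 0.32 (log2, SE). The receptors Bmpr1a (-0.04 ± 0.11) and Bmpr2 (-0.16 ± 0.10) and the target Id1 (-0.31 ± 0.15) did not pass.

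The title of the series names extracellular matrix interactions, so the genes of the basement membrane and of its receptors were taken as lists. Laminins join an alpha, a beta and a gamma chain in the basement membrane under the epithelium. The median log2 fold change of the 18 tested matrix genes was 1.01 with the labels as deposited, 0.49 in 12 libraries without S09 and S10, and 1.02 over the 13 genes that passed the filter in the 6. In the 6 libraries 7 passed as higher and 2 as lower, where 18.1% and 17.7% of all genes did. Lamb2 and Lamb3, 2 laminin beta chains, were the members of the list whose 4 Lrig1-high libraries lay above all 4 Lrig1-low libraries, as did 1.63% of all genes. Lamb2 had 10.0, 9.60 and 10.6 CPM in S02, S06 and S14 and 7.09 CPM in S10, against 1.87, 1.61 and 0.700 CPM in S01, S05 and S13 and 5.28 CPM in S09. Lamb3 had 18.3, 19.1 and 21.5 CPM in S02, S06 and S14 and 18.2 CPM in S10, against 10.1, 6.09 and 12.8 CPM in S01, S05 and S13 and 12.6 CPM in S09.

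Of the laminin chains that passed in the 6 libraries, all but Lama3 were higher. They were the alpha chain Lama5 (2.71 ± 0.45), the beta chains Lamb1 (4.08 ± 0.78), Lamb2 (2.86 ± 0.37) and Lamb3 (1.02 ± 0.26) and the gamma chain Lamc1 (1.02 ± 0.34), while the alpha chain Lama3 was lower (-3.61 ± 0.47, log2, SE). Lama3 had 2.90, 3.77 and 2.39 CPM in the Lrig1-high libraries S02, S06 and S14 and 12.6 CPM in S10, against 24.5, 66.3 and 21.3 CPM in the Lrig1-low libraries S01, S05 and S13 and 4.23 CPM in S09. Agrn, the heparan sulfate proteoglycan agrin, was lower (-0.71 ± 0.12) and Hspg2, perlecan, higher (0.49 ± 0.16). Col4a1, a chain of basement membrane collagen, was at 20.7 CPM in S10 and at 1.98 CPM or less in the other 7. The 8 listed endothelial markers summed to 42.1 CPM in S10, the highest of the Lrig1-high libraries, the lowest of which had 2.71 CPM, against 2.86 to 7.73 CPM in Lrig1-low libraries, and their part in the matrix values was not tested.

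Integrins, the receptors of laminin and other matrix proteins, had a median of -0.04 over 18 tested genes with the labels as deposited. With S09 and S10 left out, 2 of 17 passed as higher and 4 as lower in the 6 libraries, where 18.1% and 17.7% of all genes did. Itga6, an alpha chain of laminin-binding integrins, had 355, 395 and 376 CPM in the Lrig1-high libraries S02, S06 and S14 and 163 CPM in S10, against 221, 249.6 and 226 CPM in the Lrig1-low libraries S01, S05 and S13 and 261 CPM in S09. Its log2 fold change was 0.70 ± 0.15, against -1.08 ± 0.11 for Itga3, another laminin-binding chain, in the 6 libraries (SE). Itgb1, the beta chain common to many integrins (-0.16 ± 0.13), Dag1, the laminin receptor dystroglycan (-0.06 ± 0.14), and Tln1, the integrin activator talin 1 (-0.23 ± 0.13), did not pass.

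Of the listed defence genes, 4 lectins of the Reg family were lower without S09 and S10, while Reg4 of the enteroendocrine list was higher, as given above. Reg3b, which acts on bacteria at the mucosa, differed by -2.39 ± 0.38, Reg3g by -1.85 ± 0.25 and Reg1 by -1.96 ± 0.29 in the 6 libraries (log2, SE), and 4 of 7 tested defence genes passed as lower, where 17.7% of all genes did. Duox2, an epithelial oxidase, did not pass (0.29 ± 0.36). Of 33 nuclear genes of the respiratory chain, 7 passed as lower in the 6 libraries (median -0.36), and of 32 ribosomal protein genes 7 as higher (median 0.54), shares near the 17.7% lower and 18.1% higher of all genes. Their medians with the labels as deposited were -0.23, with 32 of 33 genes negative, and 0.24, with 32 of 32 positive. Over all genes, 7102 of 13883 were positive. Without S09 and S10 the labels did not overlap in 21 of the 33, lower, and 17 of the 32, higher, against 23.5% and 24.2% of all genes.

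Genes whose groups did not overlap with all 8 libraries as labelled were counted, and edgeR called 0 of them in 14 libraries. In 226 of 13883 genes (1.63%) every Lrig1-high library was above every Lrig1-low library, and in 168 (1.21%) every one was below. Without S09 and S10 these counts were 3366 (24.2%) and 3269 (23.5%) for 3 against 3. Of the 226 genes, 114 (50.4%) were called higher in the 6 libraries, and of the 168, 71 (42.3%) were called lower. Over all genes, 18.1% were called higher and 17.7% lower there. The 6 libraries are part of the 8, so the shared genes are no separate support.

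Among genes with a mean of at least 10 CPM, the 10 with the largest positive fold change without overlap were Dmwd, Bud13, Pla2g2a, Abce1, Ifitm3, Igfbp4, Fhdc1, Inpp5f, Ifitm2 and Snord34. Pla2g2a, a secreted phospholipase of Paneth cells that modifies tumor number in Apc-min mice, had 493, 404 and 169 CPM in the Lrig1-high libraries S02, S06 and S14 and 38.4 CPM in S10, against 2.93, 19.4 and 13.9 CPM in the Lrig1-low libraries S01, S05 and S13 and 28.9 CPM in S09. Its log2 fold change was 4.08 ± 0.97 in 14 libraries (SE), and DESeq2 called it (adjusted p = 0.00698). Igfbp4, a binding protein of insulin-like growth factors, had 106, 122 and 102 CPM in S02, S06 and S14 and 94.6 CPM in S10, against 14, 6.80 and 12.4 CPM in S01, S05 and S13 and 78.3 CPM in S09. Ifitm3, a membrane protein that blocks viral entry, had 24.4, 24.8 and 15.7 CPM in S02, S06 and S14 and 28.2 CPM in S10, against 1.71, 3.31 and 1.32 CPM in S01, S05 and S13 and 14.4 CPM in S09. For Igfbp4 and Ifitm3 the margin between labels was set by S09, which was several times above the other Lrig1-low libraries.

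The fold changes of Dmwd, Bud13 and Abce1 each rest on 1 library. Dmwd had 2449.7 CPM in S14, against 3.64 to 3.91 CPM in the other Lrig1-high and 0.933 to 2.42 CPM in the Lrig1-low libraries. Bud13, a splicing factor, and Abce1, a ribosome recycling factor, had 1327 and 5204 CPM in S10, against at most 23.2 and 188 CPM elsewhere. The 10 genes with the largest negative fold change without overlap were Plcd1, Abhd11os, Chic1, Gramd1c, Tiam2, Rapgefl1, Kcnk10, Flad1, Tprn and Ctnnbip1, at log2 fold changes of -0.59 to -1.06 in 14 libraries. Plcd1, a phospholipase C, had 8.45, 6.75 and 10.7 CPM in S02, S06 and S14 and 17.5 CPM in S10, against 25, 24.8 and 22.5 CPM in S01, S05 and S13 and 18.2 CPM in S09. Ctnnbip1, an inhibitor of the binding of beta-catenin to TCF factors, had 22.0, 19.8 and 22.5 CPM in S02, S06 and S14 and 31.5 CPM in S10, against 40.9, 34.2 and 36.7 CPM in S01, S05 and S13 and 32.1 CPM in S09. In both genes S10 and S09 stood next to each other at the border of the groups.

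The place of S10 and S09 among the other 6 was measured on 1914 genes that were called in the 6-library fit, differed by more than 1 on the log2 scale and were not in excess in 1 library. On a scale where 0 is the mean of S01, S05 and S13 and 1 the mean of S02, S06 and S14, neither S10 nor S09 was used to set the ends. The genes were called after S10 and S09 were set aside for their Lrig1 and crypt gene levels. Their place on this scale therefore describes that choice again in part and is no separate test. S10, labelled Lrig1-high, had a median of -0.04 (quartiles -0.32 and 0.26), and 13.7% of the genes lay nearer to the Lrig1-high mean. S09, labelled Lrig1-low, had a median of 0.68 (quartiles 0.45 and 0.89), and 70.7% lay nearer to the Lrig1-high mean. Of 968 genes higher in the Lrig1-high libraries, S10 was above S09 in 75, and of 946 lower genes it was below S09 in 20. No library was moved to the other group here.

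**Figure D4:**
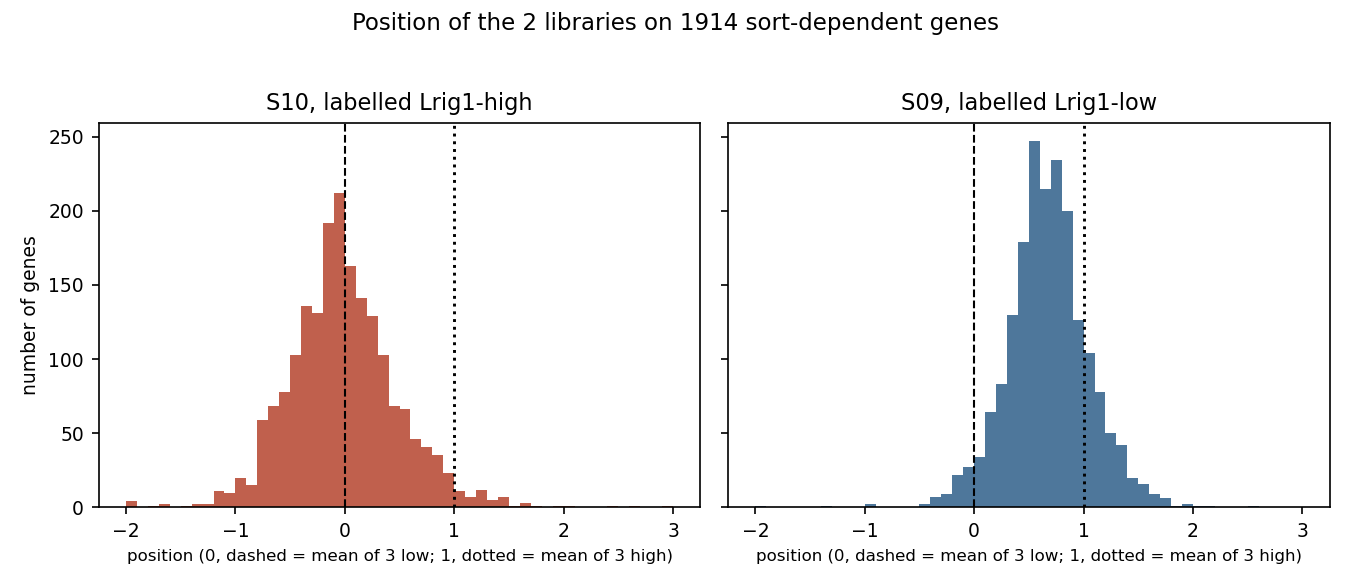
Number of genes (vertical axis) by position of S10 (left) and S09 (right) between the mean of 3 Lrig1-low libraries (0, dashed) and the mean of 3 Lrig1-high libraries (1, dotted), over 1914 genes, with values beyond the axis drawn in the end bins. S10 centres at -0.04 and S09 at 0.68.

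S10 and S09 also shared values that set them apart from both labels. Both lay above the other 6 libraries in 892 of 13883 genes and below them in 788. Leaving out genes averaging under 10 CPM or in excess in 1 library, the largest upward gap was in Muc6, a mucin of gastric and duodenal glands, at 306 CPM in S10 and 265 CPM in S09, against 0.0662 to 2.33 CPM in the other 6. Clu, Nkd1, Gkn3, a gastric secreted protein, and Prox1, a transcription factor of enteroendocrine and tumor cells, were also among the 10 with the largest upward gap. Prox1 was at 70.2 CPM in S10 and 25.1 CPM in S09, against 4.23 to 12.1 CPM in the other 6. In the 6 tumor libraries Muc6 was at 57.4 to 3781 CPM, Clu at 132 to 1629.7 CPM, Nkd1 at 40.7 to 716 CPM, Notum at 14.3 to 306 CPM and Prox1 at 38.5 to 470.5 CPM. Each of these ranges lies wholly above the other 6 normal libraries, and S10 was within it for all 5 genes, which were picked after their values were seen, while S09 was within it for Muc6 and Notum. Of the remaining genes of the 10, Ctsl followed the tumors in this way. It was at 22.8 to 328 CPM in tumors and at 6.73 to 11.7 CPM in the other 6 normal libraries. S10 (91.3 CPM) and S09 (27 CPM) were both within that tumor range. For Gkn3 the tumor range, 27.1 to 104 CPM, was also wholly above the other 6 normal libraries, at 0.326 to 14 CPM. There S09 (29.3 CPM) was within the tumor range and S10 (21.5 CPM) below it. Mt2, Akr1b7, Aldoc and Cirbp did not follow the tumors in this way, and S10 lay above the tumor median in each. Mt2, a metallothionein, was at 44.7 CPM in S10 and 56.7 CPM in S09, against a tumor median of 6.09 CPM, and Akr1b7, an aldo-keto reductase, at 71.7 CPM and 37.6 CPM, against 9.75 CPM. The cause was not tested.

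Downward, the shared values included antigen presentation. Cd74, the invariant chain of MHC class II, was at 19 CPM in S10 and 27.5 CPM in S09, against 145 to 177 CPM in the other Lrig1-high and 88.8 to 155 CPM in the other Lrig1-low libraries. H2-Ab1, a class II beta chain, was at 8.43 CPM in S10 and 8.78 CPM in S09, against 24.2 to 48.2 CPM in the other 6, and Ciita, the activator of class II transcription, at 3.94 CPM and 3.9 CPM, against 9.88 to 13.2 CPM. Psmb8, an immunoproteasome subunit, was at 18 CPM and 13.5 CPM, against 40.3 to 69.9 CPM. The tumor medians of Cd74 (169.5 CPM) and H2-Ab1 (49.4 CPM) were not low like S10 and S09. The tumor libraries varied widely, though, at 10.7 to 312 CPM for Cd74 and 2.3 to 75.2 CPM for H2-Ab1. S10 and S09 were within both tumor ranges. Between the labels, 0 of 7 class II genes passed in the 6 libraries, with a median log2 fold change of 0.25 there and 0.26 in 14.

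**Figure D5:**
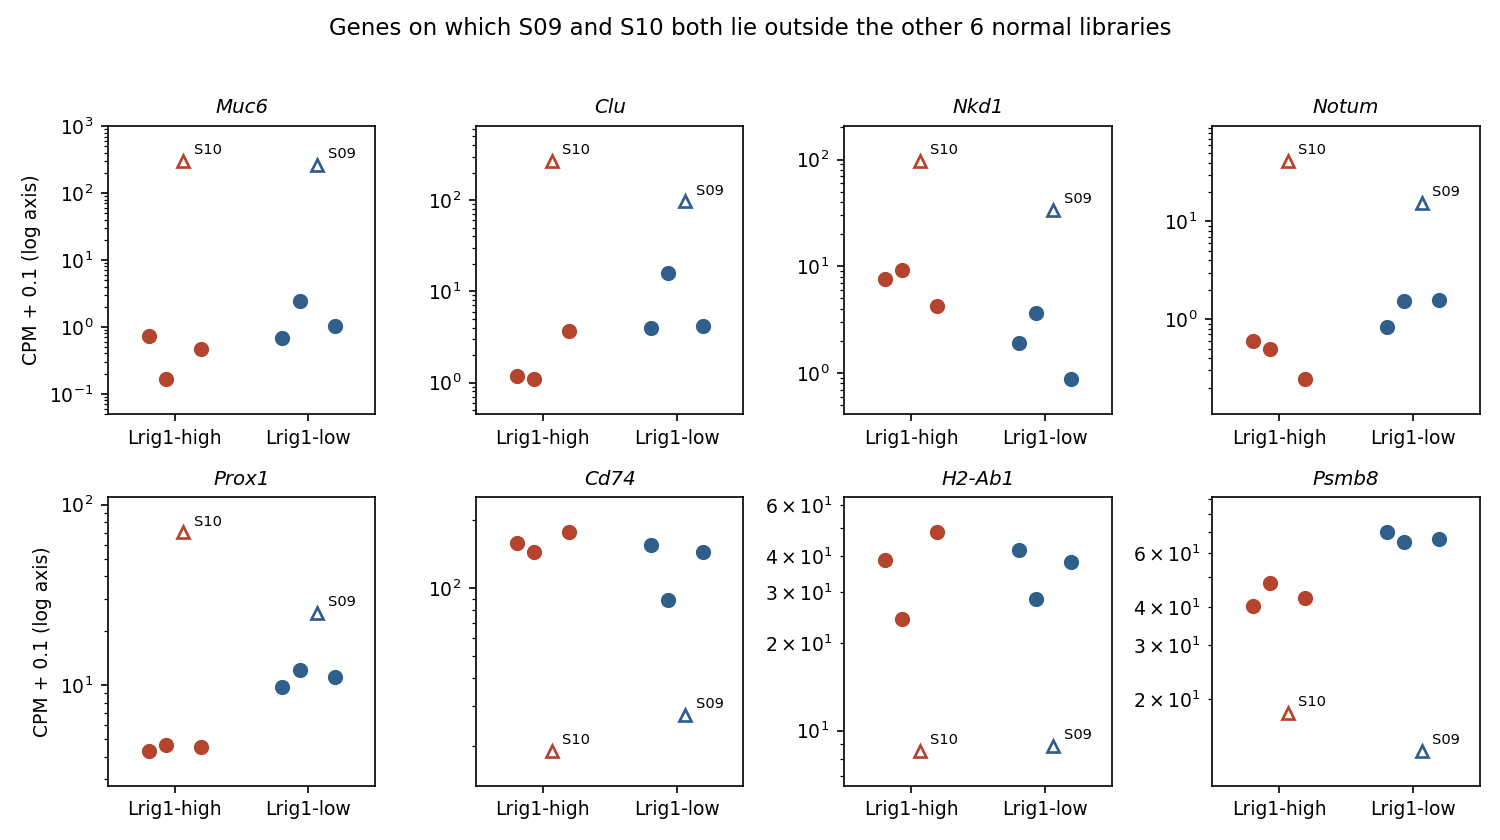
Level of 8 genes in each normal library, in CPM + 0.1 on a log axis, with Lrig1-high libraries left and Lrig1-low libraries right, and open triangles for S10 and S09. Muc6, Clu, Nkd1, Notum and Prox1 are higher, and Cd74, H2-Ab1 and Psmb8 lower, in S10 and S09 than in the other 6 libraries, whatever their label.

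Whether the sort difference was particular to normal epithelium was tested as an interaction with the same difference in tumors. In edgeR on 14 libraries 0 of 13883 genes passed (0% each way), 999 had an unadjusted p under 0.05, and limma-voom called 0 and DESeq2 5. Those 5 were Ier5l, Tmem143, Six4, Sp6 and a gene without a symbol, and each but Tmem143 was at 3.84 CPM or less in all 8 normal libraries. Without S09 and S10 edgeR called 1 gene, Ephb3, with a difference of -4.08 between tumor and normal tissue (edgeR adjusted p = 0.0402), against -2.69 ± 0.89 with them (SE, adjusted p = 0.685). Ephb3 is a crypt gene, and S09 and S10 were set aside for their Lrig1 and crypt gene levels. The p-value without them is therefore too small and does not decide the question. A negative value means that the Lrig1-high over Lrig1-low difference was lower in tumors than in normal epithelium, and for Ephb3 it exceeded the normal difference in size, so that the tumor difference had the opposite sign. For Lrig1 itself the interaction was -0.70 ± 0.71 (SE, edgeR adjusted p = 0.796).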

How the data were processed

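The authors deposited whole-number counts of reads per gene. Per the file headers, featureCounts 1.5.3 assigned reads to RefSeq exons (mm10) on the reverse strand, counting each read of a pair. The submitters' processing notes also name Trimmomatic, HISAT2, Subread and the build mm10, and the labels' protocols a stranded total RNA kit for small inputs. Symbols came from RefSeq for 25275 of 27179 genes and from GENCODE M21 for 18, and genes without one took 4.92% to 7.59% of the counts. All 14 libraries with reads were fitted in edgeR 4.0.16 (R 4.3.3) with TMM scaling, filterByExpr, 1 coefficient per group, the quasi-likelihood test and Benjamini-Hochberg adjustment, called at an adjusted p under 0.05. The SE is the absolute log2 fold change over the square root of F, and CPM is TMM-scaled. DESeq2 1.42.0 and limma 3.58.1 served as alternatives.

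Members, lists and alternatives were chosen with earlier results of these data known. Named genes are Lrig1 and the markers, up to 4 members of each list with the highest mean CPM, list members given as examples, and the 10 per direction with the largest fold change without overlap, or in the fit without S09 and S10. Lgr5, Notum, Nkd1 and the genes named for S09 and S10 or from the 6 libraries were added after their values were seen. Some genes that the rule or the lists name are not reported here by name, but count in the lists. On simulated counts, 10.4%, 77.6% and 89.4% of genes changed 2-, 4- and 8-fold were recovered in the 14 libraries (13569 genes), and 68.7%, 100% and 98.5% in the 6 (12361 genes). There, 5 unchanged genes were called in the 14 libraries and 8 in the 6. Every simulated library followed its label, unlike S09 and S10, so these shares may be too high for the real counts. No pairing is given by the labels.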

Additional observations from a re-analysis of the deposited data

Results flagged for a closer look

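Samples that stood apart from the other 3 of their label were looked for in the levels of gene lists (mean log2(CPM + 1)) and of named genes, by the gap to the nearest library divided by the range of the group, against Dixon's critical value, which chance alone passes in about 1 in 20 groups. Because S09 and S10 were singled out by their levels of Lrig1 and crypt genes, the values for these genes describe that choice again and are no separate test. S10 stood apart among Lrig1-high libraries in Lrig1 (0.895), Olfm4 (0.931), Smoc2 (0.900) and Ephb3 (0.842), all lower in S10. In list levels it stood apart in DNA replication (0.895, lower) and, higher than the other 3, in enterocyte (0.910), villus tip (0.835), enteroendocrine (0.863) and basement membrane genes (0.851). S09 stood apart among Lrig1-low libraries in Ephb3 (0.925) and in the levels of Wnt (0.921), Paneth (0.867) and Notch genes (0.854), all higher in S09, and of villus tip genes (0.912), lower in S09.

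Single genes stood apart in S10 for Abce1 (0.952) and Bud13 (0.941), in S14 for Dmwd (0.991) and in the Lrig1-low library S05 for Gramd1c (0.867). Gramd1c was at 21.8 CPM in S05, against 10.3 to 11.4 CPM in the other Lrig1-low libraries.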

How the results depend on the processing

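Among the normal libraries alone, edgeR called 0 genes higher and 0 lower with S09 and S10 and 2270 and 2229 without them, while in the fit with tumors leaving both out gave 2 higher. Against 0 higher and 0 lower in 14 libraries, DESeq2 gave 1 higher, limma-voom 2057 and 2112, 12 libraries without S09 and S10 2 higher, 10 libraries without S07 to S10 474 and 322, the 6 normal libraries 2270 and 2229, and the 6 without genes in excess in 1 library 2321 and 2281. Leaving out 1 of the 8 libraries from the 14 gave 0 and 0 each time, and so did the runs of library numbers as a block. The interaction count was 5 by DESeq2 and 1 in 12 libraries, against 0. The log2 fold change of Lrig1 was 1.26 by limma-voom, 1.46 in 10 libraries and 1.45 in the 6 normal libraries, with or without genes in excess, each past the threshold, and 0.78 to 1.21 with 1 library left out.

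List medians are given in the order limma-voom, 12 libraries, 10 libraries, 6 libraries and 6 libraries without genes in excess. Enterocyte genes had -1.80, -2.03, -2.02, -2.03 and -2.03 (-1.82 to -0.51 with 1 library left out). Villus tip genes had -1.84, -2.24, -2.23, -2.24 and -2.24 (-1.94 to -0.49), tuft genes -2.30, -2.99, -2.97, -3.01 and -3.01 (-2.59 to -0.24), goblet genes -1.16, -1.26, -1.25, -1.29 and -1.29, Paneth genes 5.06, 5.85, 5.86, 5.92 and 5.92 (1.36 to 5.45), and Wnt genes 1.70, 1.81, 1.82, 1.77 and 1.78 (0.99 to 1.94). Without limma-voom, stem cell genes had 2.77, 2.78, 2.77 and 2.78 and Notch genes 0.75, 0.76, 0.54 and 0.54. Basement membrane genes had 0.26 by limma-voom, 0.49 in 12 and 0.36 in 10 libraries, and 0.53 to 1.36 with 1 library left out. The direction of each list median named here held under these settings, while the ErbB median was -0.13 to 0.07 with 1 library left out.

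Of 3791 values of 154 genes, those of the rule and those named otherwise that could be fitted, under 25 settings, 3313 kept their side of the threshold and direction, 357 newly passed, and 121 changed sign, in 29 genes. With limma-voom, 12, 10, 6 and 6 libraries without genes in excess, Chga had -0.30, -0.26, -0.25, -0.26 and -0.26, Chgb -0.33, -0.34, -0.33, -0.34 and -0.34, Clu -1.99, -2.07, -2.05, -2.07 and -2.07, Ctsl -0.10, -0.06, -0.04, -0.06 and -0.05, Fos 0.18, 0.32, 0.33, 0.32 and 0.33, Gip -0.68, -0.75, -0.73, -0.75 and -0.74, Notum -1.80, -1.75, -1.73, -1.75 and -1.75, and Prox1 -1.25, -1.30, -1.29, -1.30 and -1.30. In the first 3 of these, Cdh5 had -1.95, -4.76 and -4.74, Col4a1 -2.32, -2.26 and -2.25, and Muc6 -2.08, -1.80 and -1.79. Bmpr1a had -0.04, -0.03, -0.04 and -0.04 in 12, 10, 6 and 6 libraries without genes in excess and rounded to 0 by DESeq2, with its size factors and with at least 1 CPM in 4 libraries, and Ciita had 0.05 by limma-voom. With 1 library left out, the ranges were Akr1b7 -1.85 to 0.18, Aldoc -1.18 to 0.40, Aqp8 -0.66 to 0.13, Avil -2.54 to 0.01, Bmpr1a -0.07 to 0.08, Camk2d -0.27 to 4.73, Ccnd2 -0.11 to 0.13, Cd74 -0.03 to 0.62, Cdh5 -6.80 to 4.91, Chga -0.50 to 0.39, Chgb -0.39 to 0.18, Ciita -0.28 to 0.20, Cirbp -0.89 to 0.65, Clu -4.01 to 3.17, Col4a1 -2.95 to 3.18, Ctsl -0.64 to 1.71, Dag1 -0.06 to 0.01, Duox2 -0.04 to 0.69, Egf -0.06 to 1.66, Egr1 -0.16 to 0.83, Fos -0.30 to 0.44, Gip -0.72 to 0.32, H2-Ab1 -0.28 to 0.34, Itgb1 -0.13 to 0.02, Mt2 -1.74 to 0.91, Muc6 -7.53 to 5.94, Nkd1 -0.55 to 3.89, Notum -3.74 to 3.16, and Prox1 -1.72 to 0.96. The cause was not tested. The labels give the groups no shared replicate numbers, so the runs of library numbers were an assumed block, under which Clu had -0.15, Gip -0.01, H2-Ab1 0 (rounded), Muc6 -0.70, Notum -0.21 and Prox1 -0.49, each with a changed sign. Depth limits genes below about 1 CPM.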

Other observations

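Of 10 listed immediate early and stress genes, which respond to tissue dissociation and to growth signals, 7 were highest in S09, while Junb was highest in S10 and Hspa1a and Hspa1b in S02. Egr1 had 134, 90.6 and 106 CPM in the Lrig1-high libraries S02, S06 and S14 and 142 CPM in S10, against 73.1, 74.5 and 54.4 CPM in the Lrig1-low libraries S01, S05 and S13 and 250.4 CPM in S09. Fos had 83.4 to 162 CPM in the 4 Lrig1-high libraries, against 97.4, 109 and 99.5 CPM in S01, S05 and S13 and 292 CPM in S09. In the 6 libraries without S09 and S10, Egr1 (0.71 ± 0.17), Jun (0.83 ± 0.20) and Ier2 (0.52 ± 0.11) passed as higher and Junb (-0.44 ± 0.14) as lower (log2, SE), of 9 tested genes. Over all genes, 18.1% passed as higher and 17.7% as lower there.

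Single libraries held very high counts of genes that were low elsewhere. A gene was counted where 1 library was above 100 CPM and more than 10 times the second highest plus 1 CPM. The Lrig1-high library S14 had 44 such genes with 16.7% of its counts and the Lrig1-low library S13 18 with 7.83%, against 0 to 3 genes and at most 1.38% in the other 6. Camk2d, a calcium-dependent kinase, was at 11341 CPM in S14 against at most 161 CPM in the others.

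Cdh5, an endothelial cadherin, was at 30.2 CPM in the Lrig1-high library S10 and 3.24 CPM in the Lrig1-low library S09, against at most 0.652 CPM in the other 6. Of the other 7 listed endothelial markers, Vwf was at 5.15 CPM and Tek at 4.30 CPM in S10, each the highest of the 8 libraries, Egfl7 at 1.52 CPM, Pecam1 at 0.788 CPM, Kdr at 0.182 CPM, and Emcn and Plvap at 0. In the 6 tumor libraries Cdh5 was at 2.62 to 155 CPM.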
